A study of Mus musculus with 6 samples.

Results

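The Cyp2 genes encode cytochrome P450 enzymes that oxidise drugs, steroids and fatty acids, and 9 of them were followed in the ageing mouse kidney: Cyp2b10, Cyp2d9, Cyp2d12, Cyp2d22, Cyp2d26, Cyp2e1, Cyp2j5, Cyp2j13 and Cyp2a4. Every non-control array probe annotated with a RefSeq transcript of these genes was kept, which gave 13 of 55681 probes and 9 of 20284 named genes. The members were chosen by their log2 signal at 2 against 20 months on these same arrays, so that difference is described for them below and not tested. RNA came from whole kidneys of male C57BL/6 mice, an inbred strain, with no treatment or engineered allele named in the labels. The young group was 2 months old and the aged group 20 months old, with 3 samples in each and 1 single-colour Agilent array per sample. The design text speaks of independent RNA preparations but not of separate mice, and the p-values below reflect only how far these samples scatter, part of which may be technical.

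Cyp2 enzymes sit in the membrane of the endoplasmic reticulum and receive electrons from the reductase Por. In rodents many of them are most abundant in liver, where the nuclear receptors Nr1i3 and Nr1i2 switch on the Cyp2b and Cyp2c genes in response to drugs, and growth hormone and androgen set male and female levels of several Cyp2d and Cyp2a genes. In the kidney they are known mainly from the proximal tubule, where Cyp2j and Cyp2c enzymes also turn arachidonic acid into epoxides that act on blood vessels and sodium transport.

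The 6 arrays shared 1 slide, with young samples in its row 1 and aged samples in its row 2, and an effect of the row cannot be told apart from one of age. The 75th percentile of the processed signal ran from 2892 to 4366 on the young arrays and from 2702 to 4498 on the aged arrays, and 55.3% to 72.9% of probes were well above background on young arrays against 46.3% to 62.9% on aged arrays. No probe was saturated. Values below are normalised log2 signals, that is, log2 processed signal minus the array's 75th percentile, so 0 is the level of the 75th percentile and a difference of 1 is a doubling. A probe's level depends on its own sequence, so levels are compared between samples and never between genes. In whole-kidney RNA, a change in the number of cells that make a transcript and a change in RNA per cell cannot be told apart.

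Of the 13 member probes, 12 were well above background on all 6 arrays, and the exception was the Cyp2b10 probe. In mean signal, Cyp2d26 was 1.44-fold lower in aged kidneys, and Cyp2d9 was 2.68-fold higher, the widest upward difference among the 8 genes above background on every array. Cyp2b10 differed by more, but from a faint young signal that makes its fold a rough value. By the brightest probe of each gene, 5 genes were higher in aged kidneys with no overlap between the ages (Cyp2b10, Cyp2d9, Cyp2d12, Cyp2d22 and Cyp2a4), 1 was lower with no overlap (Cyp2d26), and Cyp2e1, Cyp2j5 and Cyp2j13 overlapped. Among all 14549 genes tested, 21.9% did not overlap between the ages, with 10.4% of all genes higher and 11.5% lower. Counted by probe, 7 member probes were higher and 1 lower without overlap, beside 20.9% without overlap in either direction among 30826 probes tested. In the limma fit over all genes, 3.37% of genes were called at an adjusted p of 0.05, 1.98% higher and 1.4% lower. Cyp2b10, Cyp2d9 and Cyp2d12 were among those called higher and 0 members among those called lower, from which nothing is read because the same difference chose the genes. Cyp2d9 was called whichever array was left out, Cyp2b10 was not called without young replicates 1 or 3 or aged replicates 2 or 3, and Cyp2d12 was not called without young replicates 1, 2 or 3 or aged replicate 2. When dim probes were not filtered out, 0 members were called, Cyp2d9 included. Cyp2b10 was also not called with quantile normalisation or a trended robust variance, and Cyp2d12 not with the replicate block. Cyp2d26 was called lower with the trended robust variance and with array weights, and Cyp2d22 higher with the trended robust variance, with the flagged spots kept and with the authors' values. The median difference of the 9 members was 0.31 on the log2 scale, beside -0.014 for all genes tested.

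**Figure D1:**
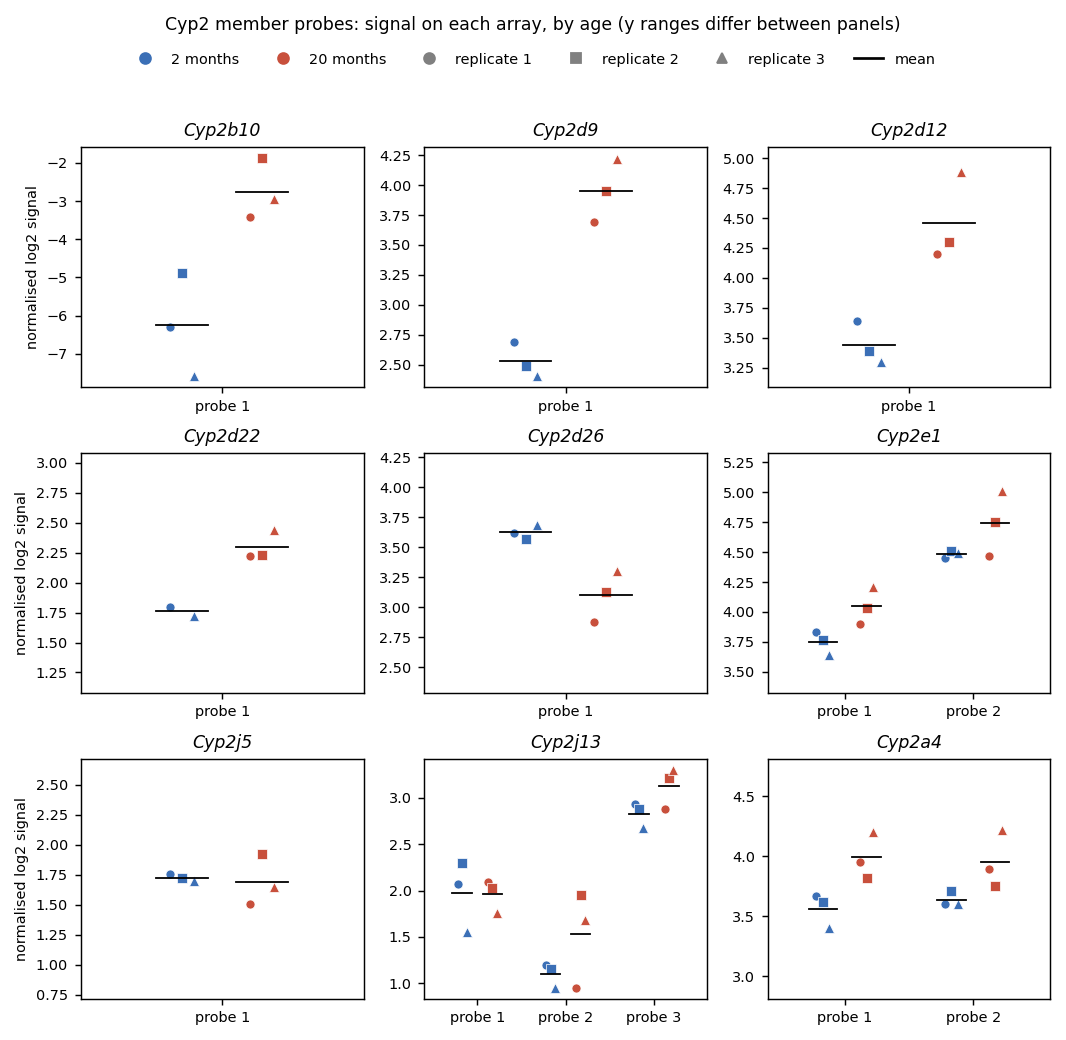
Normalised log2 signal of each of the 13 member probes (y axis, ranges differ between panels) on the 3 young (blue) and 3 aged (red) arrays, with marker shape for the replicate number and a line for the mean; no error bars are drawn. The ages separate most widely for Cyp2b10 and Cyp2d9, Cyp2d26 is lower in aged samples, and the Cyp2j5 values overlap; in the panels with several probes the highest-numbered probe is the brightest, and Cyp2d22 lacks a value for young replicate 2.

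Among the Cyp2d members, Cyp2d9 has the widest upward difference and Cyp2d26 the only downward one, and Cyp2b10 has the widest difference of all members. For this reason the promoter windows of Cyp2d9, Cyp2d26 and Cyp2b10 are shown. Each is the 250 bases before the RefSeq transcription start in build GRCm38.p6, read 5′ to 3′ on the strand of the gene, at chr15:82452127-82452376 (plus strand), chr15:82794246-82794495 (minus strand) and chr7:25897408-25897657 (plus strand). Capitals mark matches to the motifs searched, which are named below.
Cyp2d9: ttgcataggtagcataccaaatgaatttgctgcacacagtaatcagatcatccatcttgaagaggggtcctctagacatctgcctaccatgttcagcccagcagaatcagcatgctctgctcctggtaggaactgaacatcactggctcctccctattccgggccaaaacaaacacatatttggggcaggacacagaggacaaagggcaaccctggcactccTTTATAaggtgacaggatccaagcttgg
Cyp2d26: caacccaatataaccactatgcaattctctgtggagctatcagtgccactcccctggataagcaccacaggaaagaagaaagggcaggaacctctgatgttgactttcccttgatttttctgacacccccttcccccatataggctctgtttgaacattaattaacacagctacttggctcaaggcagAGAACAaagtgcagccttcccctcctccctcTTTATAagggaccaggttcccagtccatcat
Cyp2b10: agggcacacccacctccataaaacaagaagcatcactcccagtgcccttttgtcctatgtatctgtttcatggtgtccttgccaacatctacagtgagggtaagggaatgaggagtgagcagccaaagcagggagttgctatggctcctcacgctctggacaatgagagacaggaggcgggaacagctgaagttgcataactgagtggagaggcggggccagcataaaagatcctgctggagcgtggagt

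The windows were searched on both strands for 5 motifs: TATAAA, the TATA box where transcription machinery assembles; CAAAGTCCA, a site of the liver and kidney factor Hnf4a; AGGTCA, the core read by receptors such as Nr1i3 and Rxra; AGAACA, the core read by androgen and glucocorticoid receptors; and TTCNNNGAA, read by the growth hormone-activated factor Stat5b. RefSeq held windows for 7 of the 9 members, with none for Cyp2d12 and Cyp2d22. In capitals above, Cyp2d9 carries a TATAAA match on the opposite strand that begins 28 bases before the start. Cyp2d26 carries one 31 bases before the start, also on the opposite strand, and an AGAACA match 62 bases before it. Cyp2b10 has no match to the 5 motifs in this window, and neither has Cyp2j13. Among the other members, TATAAA was matched 31 bases before the start of Cyp2e1, 28 before Cyp2a4 and 128 before Cyp2j5. Cyp2j5 also has AGGTCA 197 bases before its start. Windows of Cyp2 genes that are no members held matches too. AGAACA lay 69 bases before the start of Cyp2d11 and 210 before that of Cyp2d10, and both windows also have TATAAA. CAAAGTCCA was matched in no member, but in Cyp2c40, Cyp2c65, Cyp2c67, Cyp2c68, Cyp2c69 and Cyp2c70. TATAAA was present in 12.4% of all 32851 windows of this length, CAAAGTCCA in 0.384%, AGGTCA in 14%, AGAACA in 16.1% and TTCNNNGAA in 7.02%. These matches describe letters only. In pairwise alignment the Cyp2d9 window was 82.3% identical to that of Cyp2d10, the next gene on one side, 82.3% identical to that of Cyp2d11 beyond it, and 50.5% identical to that of Cyp2d26. The differences between the ages of all 4 genes are given below.

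Cyp2b10 is the mouse gene of the phenobarbital-inducible Cyp2b class and a standard readout of Nr1i3 activity in liver. Its single probe read -6.31, -4.88 and -7.58 in the 3 young samples and -3.43, -1.88 and -2.96 in the 3 aged samples. Every aged value lay above every young value, with a gap of 1.45 between the nearest samples. The means were -6.26 ± 1.35 in young and -2.76 ± 0.79 in aged kidneys (SD, n = 3 each), a difference of 3.50 ± 0.65 (moderated SE), roughly 11.3-fold on these faint values. The young signal was faint, well above background in 2 of 3 samples against 3 of 3 aged samples, so the probe entered the fit through the aged group in which it is high. Probes above background on no array also read differently between arrays. Cyp2c50, named after its values were seen, read -9.30, -8.95 and -7.57 in young samples and -8.04, -7.36 and -6.15 in aged samples. Its difference was 1.42, and that of Cyp2t4, likewise above background on no array, was 0.17. The part of this floor in the Cyp2b10 difference was not tested. With normexp background correction the Cyp2b10 difference was 2.03. Leaving out each array in turn gave 2.84 to 4.18, the highest without young replicate 2 and the lowest without young replicate 3. The neighbouring genes of the same class, Cyp2b13 and Cyp2b9, were not tested because their signal was too faint, and Cyp2b23 and Cyp2b19, named here for their position, differed by -0.17 ± 0.15 and -0.28 ± 0.20 (limma adjusted p = 0.627 and 0.528).

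Cyp2d genes form a cluster on chromosome 15, and 4 members lie in it. Cyp2d9, a male-biased steroid hydroxylase of mouse liver, read 2.69, 2.49 and 2.41 in young samples and 3.69, 3.95 and 4.22 in aged samples. The ages stood 1.00 apart at their nearest samples. The mean was 2.53 ± 0.14 in young and 3.95 ± 0.26 in aged kidneys (SD, n = 3 each), a difference of 1.42 ± 0.16 (moderated SE) or 2.68-fold, and it ranged from 1.29 to 1.55 over 17 alternative treatments of the data. Cyp2d12 read 3.64, 3.39 and 3.30 in young samples and 4.20, 4.30 and 4.88 in aged samples. The ages again did not overlap, with aged replicate 3 well above the other two aged samples. Its means were 3.44 ± 0.17 and 4.46 ± 0.36 (SD, n = 3 each), a difference of 1.02 ± 0.19 (moderated SE) or 2.02-fold, with 0.81 to 1.15 over the alternatives.

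Cyp2d22, often taken as the closest mouse counterpart of the human drug-metabolising enzyme CYP2D6, read 1.80 and 1.72 in young replicates 1 and 3 and 2.22, 2.23 and 2.44 in the aged samples. The spot of young replicate 2 carried an outlier flag and was dropped, so the young mean rests on 2 values. The aged samples were higher without overlap, by 0.54 ± 0.13 (moderated SE) or 1.45-fold. Keeping the flagged spot gave 0.61, and normexp correction gave 0.38. Cyp2d26 ran the other way. It read 3.62, 3.57 and 3.69 in young samples and 2.88, 3.13 and 3.30 in aged samples, and all aged values were lower. The means were 3.63 ± 0.06 and 3.10 ± 0.21 (SD, n = 3 each), a difference of -0.52 ± 0.13 (moderated SE), or 1.44-fold lower in aged kidneys. With normexp correction the difference was -0.34 and the ages overlapped.

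Read in the order of the chromosome, the Cyp2d cluster held differences of both signs. Of its genes, only Cyp2d10 had a negative difference directly beside genes that were higher, and its ages overlapped. Untested genes lay between Cyp2d26 and the other tested genes of the cluster. The order from the RefSeq table was Cyp2d22, Cyp2d11, Cyp2d10, Cyp2d9, Cyp2d12, Cyp2d34, Cyp2d13, Cyp2d40 and Cyp2d26. Cyp2d34, which was no member and was tested, rose by 1.90 ± 0.17 (moderated SE; limma adjusted p = 0.00277), with 0.40, 0.13 and 0.11 in young samples and 1.84, 2.08 and 2.42 in aged samples. Every aged sample was higher. The other Cyp2d34 probe also separated the ages, by 0.92 or 1.89-fold against 3.73-fold on the brighter probe. The call was lost in 1 of 17 alternatives, the fit with no filter on dim probes (adjusted p = 0.0642). Cyp2d11 rose by 0.79 ± 0.16 (adjusted p = 0.0441), from 4, 4.02 and 3.85 to 4.55, 4.61 and 5.10. That call was lost without young replicates 1, 2 or 3 or aged replicates 2 or 3 (adjusted p = 0.131, 0.111, 0.122, 0.106 and 0.0578), with normexp correction (0.0808) and with the replicate number as a block (0.0931). Cyp2d10, named for its position between Cyp2d11 and Cyp2d9, differed by -0.39 ± 0.21 with overlapping ages (adjusted p = 0.384), and Cyp2d13 and Cyp2d40 were too faint to test. On either side of the cluster, genes named for their position gave -0.14 ± 0.13 for Ndufa6 and -0.07 ± 0.12 for Tcf20 (adjusted p = 0.644 and 0.804), and Nfam1, the gene after Tcf20, was higher by 0.98 ± 0.19 (0.0372). The Cyp2d genes are close paralogs, and the files used here give no probe sequences, so how far signal of a copy reaches a neighbour's probe was not tested.

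**Figure D2:**
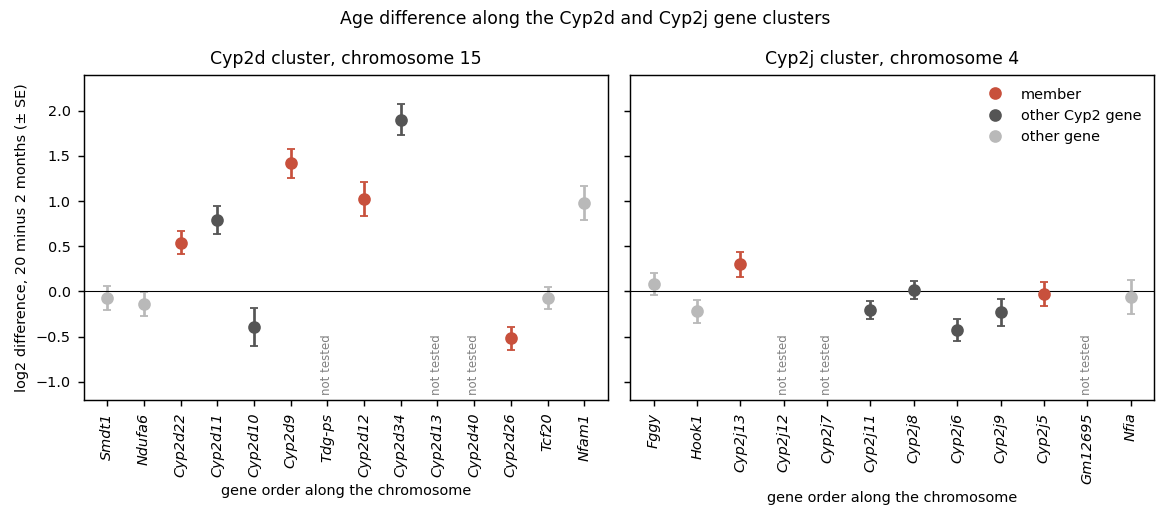
Difference between the ages (y axis, log2, 20 minus 2 months, with moderated SE bars) for genes in their order along the Cyp2d cluster of chromosome 15 and the Cyp2j cluster of chromosome 4 (x axis, order only, not to scale), with members in red, other Cyp2 genes in dark grey and other genes in light grey. Cyp2d9, Cyp2d12 and Cyp2d34 sit at 1.42, 1.02 and 1.90 while Cyp2d10 and Cyp2d26 in the same cluster sit at -0.39 and -0.52, and the Cyp2j genes lie between -0.43 and 0.30.

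Cyp2e1 oxidises ethanol, acetone and small toxic molecules. Its brighter probe read 4.45, 4.51 and 4.49 in young samples and 4.47, 4.75 and 5.01 in aged samples. The lowest aged value lay inside the young range, and the difference was 0.26 ± 0.15 (moderated SE) or 1.20-fold. The other probe read 3.83, 3.77 and 3.64 against 3.90, 4.03 and 4.21, a difference of 0.30 with the ages 0.07 apart. The 2 probes gave like differences and differed in whether the ages overlapped, which moved with the scaling: with quantile normalisation both separated the ages, and with median centring neither did. Over the alternatives the difference of the brighter probe ran from 0.12 to 0.40.

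Cyp2a4 is a steroid hydroxylase that acts on testosterone. Its brighter probe read 3.60, 3.71 and 3.60 in young samples and 3.89, 3.75 and 4.22 in aged samples, a difference of 0.31 ± 0.14 (moderated SE) or 1.24-fold. The ages did not overlap but came within 0.04 of each other. The other probe read 3.67, 3.62 and 3.40 against 3.95, 3.82 and 4.20, a difference of 0.43 with a gap of 0.15. Cyp2a4 has a near-identical relative, Cyp2a5, a coumarin hydroxylase, and their promoter windows matched at 245 of 251 alignment columns (97.6%). No probe on the array carried a Cyp2a5 transcript name, so signal of Cyp2a5 on the Cyp2a4 probes cannot be told apart from signal of Cyp2a4.

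The Cyp2j members are epoxygenases of the Cyp2j cluster on chromosome 4. Cyp2j5, an arachidonic acid epoxygenase known to be abundant in the mouse proximal tubule, read 1.76, 1.72 and 1.70 in young samples and 1.51, 1.92 and 1.65 in aged samples. The aged values lay on both sides of the young ones, and the difference was -0.03 ± 0.13 (moderated SE). Its sign held in 14 of 17 alternatives, with values from -0.14 to 0.06. Cyp2j13 had 3 probes. The brightest read 2.93, 2.88 and 2.68 in young and 2.88, 3.21 and 3.30 in aged samples, a difference of 0.30 ± 0.14 (moderated SE) with overlap. A dimmer probe read 1.20, 1.15 and 0.95 against 0.95, 1.95 and 1.68, a difference of 0.42, and the remaining probe read 2.07, 2.30 and 1.55 against 2.09, 2.03 and 1.76, a difference of -0.02. All 3 probes overlapped between the ages. The brightest no longer did so with quantile normalisation, and the probe at -0.02 gave 0.03 with median centring. Of the other genes of this cluster, Cyp2j6 had the smallest p, at -0.43 ± 0.12 (limma adjusted p = 0.116), with 0.27, 0.20 and 0.37 in young samples and 0.02, -0.19 and -0.30 in aged samples. It passed the threshold without aged replicate 1 (-0.52, adjusted p = 0.0476).

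The members also varied between samples of the same age. Aged replicate 3 was the highest aged sample for 7 of the 9 members and aged replicate 1 the lowest for 8 of 9. Among young samples, replicate 3 was the lowest for 7 of 9. For the 4740 genes of mean log2 signal at or above 1.5, the median deviation from the mean of the age was -0.068, -0.023 and 0.095 on the 3 aged arrays. For the members it was -0.248, 0.004 and 0.195, the same order over a wider range. On the 3 young arrays the orders were opposite, with -0.022, 0.007 and 0.014 for the bright genes and 0.033, 0.011 and -0.039 for the members. The part of these orders in the members' differences was not tested.

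**Figure D3:**
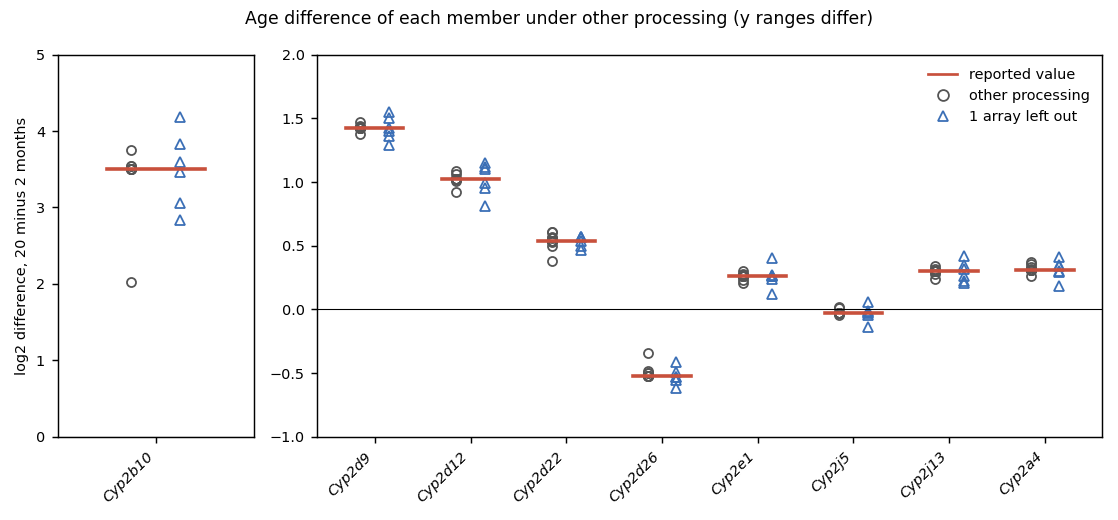
Difference between the ages for each member (y axis, log2, 20 minus 2 months) as reported (red line), under other processing (circles) and with 1 array left out (triangles); the Cyp2b10 panel has its own range. Cyp2b10 runs from 2.03 to 4.18, Cyp2d9 stays between 1.29 and 1.55, and the values of Cyp2j5 lie on both sides of 0.

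The remaining Cyp2 genes were tested without a choice among them by value, though the family itself was taken up because of members seen on these arrays, so the count is not independent of those arrays. Of 39 other protein-coding Cyp2 genes, 35 had a named probe and 20 were bright enough to test. The limma fit called 6 of these 20 higher and 0 lower in aged kidneys at an adjusted p of 0.05, beside 1.98% higher and 1.4% lower among all genes, and 10 had an unadjusted p under 0.05, a level reached by 17.1% of all genes tested. Of the 20, 12 differences were above 0 and 8 below, with a median of 0.24 against -0.014 for all genes. Without young replicate 3 that median was 0.11, and with array weights 0.13. The count past the threshold was 1, 2 and 2 without young replicates 1, 2 and 3, 8 (1 of them lower), 3 and 3 without aged replicates 1, 2 and 3, 3 with the replicate block, and 0 when dim probes were not filtered out (adjusted p of the 6 genes up to 0.202). Beside Cyp2d34 and Cyp2d11, the risers were 3 Cyp2c genes and Cyp2f2.

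Cyp2c39, an enzyme that hydroxylates retinoic acid, rose by 1.61 ± 0.23 (moderated SE; limma adjusted p = 0.0135), from -3.42, -3.08 and -3.42 in young samples to -1.99, -1.94 and -1.16 in aged samples. The call was lost without young replicates 1 or 3 (adjusted p = 0.0525 and 0.0513). Cyp2c29, an epoxygenase that Nr1i3 induces in liver, rose by 1.03 ± 0.18 (adjusted p = 0.0243), from -2.13, -2.13 and -2.37 to -1.39, -1.35 and -0.80. It missed the threshold without young replicates 1, 2 or 3 or without aged replicate 2 (adjusted p = 0.0704, 0.0687, 0.0729 and 0.0685) and with the replicate block (0.0669). Cyp2c23, the arachidonic acid epoxygenase best known from kidney, rose by 0.74 ± 0.15 (adjusted p = 0.0462), from 1.53, 1.49 and 1.63 to 2.30, 2.00 and 2.57. It missed the threshold without young replicates 1, 2 or 3 (adjusted p = 0.155, 0.148 and 0.0968), without aged replicates 1 or 3 (0.0636 and 0.097) and with the replicate block (0.0598). In all 3 Cyp2c genes every aged sample was above every young sample. As for the Cyp2d genes, how far signal of a Cyp2c copy reaches another copy's probe was not tested. Cyp2c67, named after its values were seen, differed by 0.15 on its brighter probe and by 1.02 on the other. Cyp2f2, which activates naphthalene in lung, rose by 0.78 ± 0.14 (adjusted p = 0.0311), from -0.43, -0.36 and -0.03 to 0.38, 0.47 and 0.65. It missed the threshold without young replicates 1 or 2 or aged replicates 2 or 3 (adjusted p = 0.121, 0.108, 0.106 and 0.0908). Of the other tested Cyp2 genes with the smallest p, Cyp2c37 differed by 1.21 (adjusted p = 0.105), the vitamin D hydroxylase Cyp2r1 by 0.41 (0.154) and Cyp2c68 by 0.37 (0.226). Cyp2c37 was faint, well above background in 2 of 3 young and 3 of 3 aged samples, so it entered the fit through the aged group in which it is high. It is counted above among the genes with an unadjusted p under 0.05. Its other probe, too faint to test, differed by 0.21 with overlapping ages. Without aged replicate 1, Cyp2c37 and Cyp2r1 passed the threshold, at 1.46 and 0.52 (adjusted p = 0.0485 and 0.0452).

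Genes that work with the Cyp2 enzymes were then counted from lists. The electron donors and haem suppliers had 10 of 10 genes tested, with 0 past the threshold in limma, 0 at an unadjusted p under 0.05 and a median difference of 0.09. Por differed by 0.22 (adjusted p = 0.462) and the haem-binding protein Pgrmc2 by 0.18 (0.473). Of the receptors and transcription factors known to regulate Cyp2 genes, 23 were tested, with 0 past the threshold, 4 at an unadjusted p under 0.05, beside 17.1% of all genes, and a median of -0.01. The smallest p belonged to Cebpa at -0.75 (adjusted p = 0.124), and Nr1i3 itself, named here as the receptor of Cyp2b10, differed by -0.19 (0.581) with overlapping ages. The Nr1i3 signal was faint, well above background in 3 of 3 young and 2 of 3 aged samples.

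Of genes that respond to Nr1i3 or Nr1i2 in mouse liver, 13 were tested and 2 rose, with 0 lower and a median of 0.17. Among all genes tested, 1.98% were called higher and 1.4% lower. An unadjusted p under 0.05 was reached by 3 of the 13, beside 17.1% of all genes. The retinaldehyde dehydrogenase Aldh1a1 rose by 2.12 ± 0.11 (moderated SE; limma adjusted p = 0.000383), from -0.06, -0.09 and -0.08 in young samples to 1.91, 2.19 and 2.04 in aged samples. The spread within each age was small beside the gap, and the call held in all 17 alternatives. The other riser was Cyp2c29, given above and already counted among the other Cyp2 genes called higher. Cyp3a11 and Ces2a, both on this list and named after their values were seen, were not above background on any array.

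Of the genes of arachidonic acid and epoxide metabolism, 13 were tested with 0 past the threshold, 2 at an unadjusted p under 0.05, beside the same 17.1%, and a median of -0.06. The lipoxygenases Alox5 and Alox12 differed by 0.82 and 0.35 (limma adjusted p = 0.0643 and 0.189). Alox5 passed in 3 of 17 alternatives, with median centring, the filter on all 6 arrays and array weights (0.0128, 0.0327 and 0.0431). Of the other drug-metabolising P450 and flavin monooxygenase genes, 9 were tested and 1 rose, with 0 lower and a median of 0.12. Among all genes tested, 1.98% were called higher and 1.4% lower. An unadjusted p under 0.05 was reached by 5 of the 9, beside 17.1% of all genes. The riser was Fmo4, a flavin monooxygenase, at 0.84 ± 0.17 (adjusted p = 0.0441). Its call was lost without young replicates 1, 2 or 3 (0.116, 0.132 and 0.0812) and without aged replicates 2 or 3 (0.0962 and 0.0908). It was also lost with quantile normalisation (0.0569) and when dim probes were not filtered out (0.202). Of 10 androgen-responsive or male-biased kidney genes, 1 was called higher and 0 lower, beside 1.98% and 1.4% of all genes. Differences were above 0 for 3 of the 10 and below 0 for 7, with a median of -0.10. An unadjusted p under 0.05 was reached by 2 of them, beside 17.1% of all genes. The gene called higher was Cyp4a12a, an androgen-induced fatty acid hydroxylase, at 1.00 ± 0.14 (adjusted p = 0.0123), from 2.89, 3.23 and 3.23 to 4.18, 3.95 and 4.22, with no overlap. That call was lost in 1 of 17 alternatives, the fit in which dim probes were not filtered out (0.109).

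**Figure D4:**
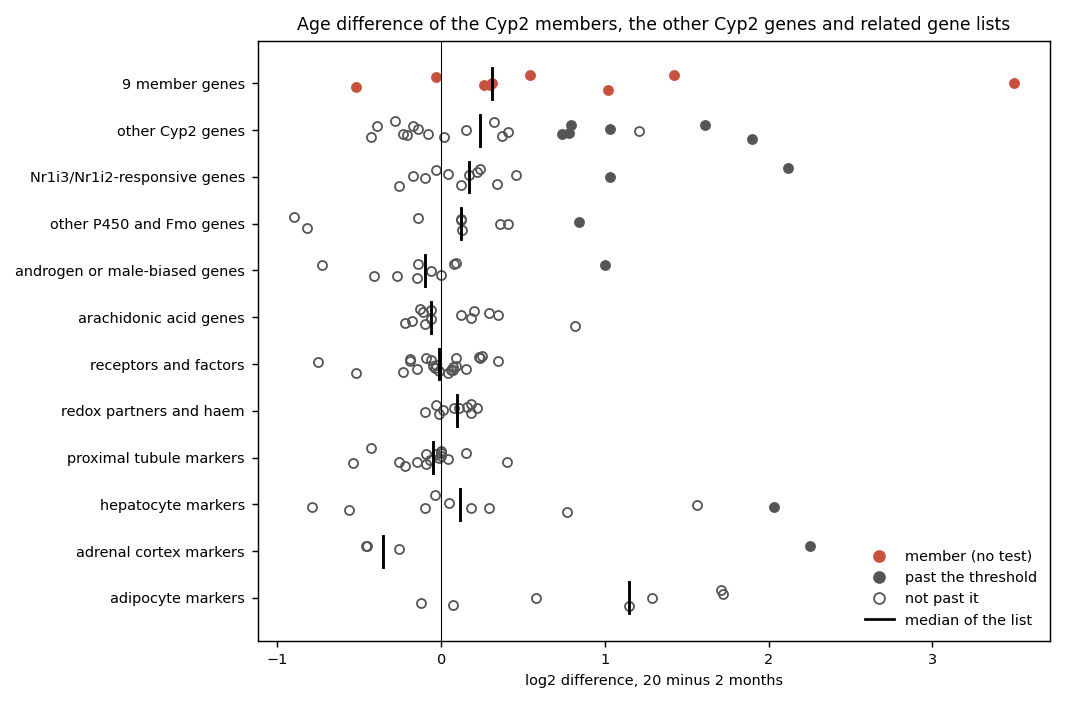
Difference between the ages of single genes (x axis, log2, 20 minus 2 months) for the 9 members (red, not tested) and for each gene list, with filled points past an adjusted p of 0.05, open points not past it, and a black line at the median of the list. The members spread from -0.52 to 3.50, 6 of the 20 other Cyp2 genes are filled on the right, and the receptor, redox partner and proximal tubule lists have no filled point.

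Markers of cells that the samples could hold were read beside these values. All 16 proximal tubule markers were well above background on all 6 arrays of this kidney RNA. None of the 16 passed the threshold in limma, 2 had an unadjusted p under 0.05 (17.1% among all genes), and the smallest p-values were those of Slc5a1 at -0.54 (adjusted p = 0.0727) and Slc22a7 at -0.43 (0.159). Slc5a1 passed in 4 of 17 alternatives: the filter on all 6 arrays, the trended robust variance, array weights, and without aged replicate 1 (0.0472, 0.0365, 0.034 and 0.0397). Their summed linear signal, in units of each array's 75th percentile, was 209 to 219 in young and 190 to 234 in aged samples. Of 16 hepatocyte markers, 9 were above background on all 6 arrays, and Cps1, Cyp7a1, Cyp8b1 and Hpx were above it on none. The sum of the hepatocyte markers was 29.2 to 30.8 in young and 30 to 36.9 in aged samples. Of the 10 tested, 6 differences were above 0 and 4 below, with a median of 0.11. An unadjusted p under 0.05 was reached by 4 of them, beside 17.1% of all genes. Without overlap between the ages, 3 of the 10 were higher and 1 was lower, beside 10.4% and 11.5% of all genes. Only prothrombin (F2) passed the threshold, beside 1.98% of all genes called higher, at 2.03 ± 0.38 (adjusted p = 0.0353). That call was lost without young replicates 1, 2 or 3 (0.0863, 0.0874 and 0.0512) or aged replicate 3 (0.11). It was also lost with quantile normalisation, a trended robust variance or the replicate block (0.0523, 0.0577 and 0.0763), and when dim probes were not filtered out (0.194). The part of hepatocyte signal in the members' differences was not tested.

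Adrenal cortex can come with a dissected kidney. Of its 9 markers, 4 were tested and 1 rose, beside 1.98% of all genes called higher. An unadjusted p under 0.05 was reached by 2 of the 4, beside 17.1% of all genes. The riser was the corticotropin receptor Mc2r, at 2.25 ± 0.31 (limma adjusted p = 0.0123). Its call was lost without aged replicate 2 (0.0604) and when dim probes were not filtered out (0.121). The other 3 tested, Nr5a1, Cyp21a1 and Akr1b7, all named for completeness, differed by -0.45, -0.46 and -0.26 (adjusted p = 0.286, 0.37 and 0.651), and the median of the list was -0.35. The steroid-making Cyp11a1 and Cyp11b1 were above background on none of the arrays, and the summed signal was 0.895 to 1.3 in young and 0.896 to 0.988 in aged samples. The adipocyte markers had 7 genes tested, 0 past the threshold, 3 at an unadjusted p under 0.05, beside 17.1% of all genes, and a median of 1.15. Their sum was 25.2 to 41.4 in young and 39.8 to 43.3 in aged samples, and Cidec and Adipoq differed by 1.71 and 1.72 (adjusted p = 0.129 and 0.16). Cidec passed the threshold without young replicate 1, at 1.04 (adjusted p = 0.0426), and with median centring both passed, at 1.75 and 1.76 (0.000303 and 0.000599). The part of adipocyte signal in the members' differences was not tested.

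For each member, the gene outside the Cyp2 family with the most similar profile was sought among 13921 candidates, as the smallest root mean square difference between profiles centred on their own means over the 6 samples. Cyp2b10 was nearest to the steroid sulfotransferase Sult2a6, at 0.494 on the log2 scale (Pearson r = 0.976 over 6 samples). Cyp2d9 was nearest to Apoh, a plasma apolipoprotein gene, at 0.133 (r = 0.987), and Cyp2d12 to the reticulon gene Rtn1 at 0.149 (r = 0.966). Cyp2d26 was nearest to Atp6v1c2, a proton pump subunit, at 0.048 (r = 0.987). The members with narrow differences had close matches: Rdh11, a retinol dehydrogenase, for Cyp2e1 at 0.031, Mrpl22, a mitochondrial ribosomal protein, for Cyp2j5 at 0.021, Nanp for Cyp2j13 at 0.031 and Pde6a for Cyp2a4 at 0.023. These are the best of many candidates on the same 6 arrays and describe shape only, and Cyp2d22 was left out because it has 5 values.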

How the data were processed

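Whole-kidney RNA of male C57BL/6 mice was measured on Agilent arrays of design 028005, 3 at 2 months and 3 at 20 months. Per the labels, Trizol RNA was turned into cDNA, and Klenow enzyme with random primers added the Cy3 label. Per the file headers, the arrays were scanned on a G2505C scanner and quantified by the authors with Feature Extraction 11.5.1.1 (protocol GE1_1105_Oct12) into a processed signal intensity that is background-subtracted on a linear scale. The authors' deposited value table is in log2 units and equals the log2 processed signal less the 75th percentile of each array, to within a constant for each array (0.144 to 0.165). The array design was annotated on build mm9, while symbols came from RefSeq of GRCm38.p6, so no gene coordinates are given beyond those of the RefSeq promoter windows.

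From the scanner files, control spots and spots flagged as outliers were left out, log2 processed signals were averaged per probe, and each array's 75th percentile was subtracted. A gene was represented by its brightest named probe and tested where that probe was well above background in every sample of either age. Of 55681 probes, 26762 had 1 gene symbol and 28919 had none. Ages were compared with limma (lmFit and eBayes, two-sided), with Benjamini-Hochberg adjustment over 14549 genes and a threshold of 0.05; 491 genes passed (3.37%). The procedure was tested on simulated data. Members and gene lists were chosen with earlier results of these data known. Members and all their probes were named. Of the other Cyp2 genes, those past the threshold and the 4 next by p were named, and of each list up to 4 past it or otherwise the 2 with the smallest p, of which 1 gene is not reported here. Genes outside this rule are said to be named for position or after their values were seen.

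Alternatives were quantile normalisation, median centring, normexp (offset 50), the authors' values, leaving dim probes in, requiring signal on all 6 arrays, retaining flagged spots, averaging a gene's probes, a trended robust variance, array weights, a replicate block, and each array left out. Normexp was run on the median spot signal, a choice made after the files were seen. Software was R 4.3.3, limma 3.58.1, version 1.17.8 of data.table, jsonlite 2.0.0, Python 3.11.15, numpy 2.4.6, pandas 2.3.3, matplotlib 3.10.9 and Biopython 1.88.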

Additional observations from a re-analysis of the deposited data

How the results depend on the processing

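The median difference of the members, 0.31, ran from 0.21 to 0.42 over the 17 alternatives, and Cyp2j5 was the only member whose sign was not kept in all of those that could be computed. Cyp2b10 has no value with the filter on all 6 arrays. The count of all genes past the threshold, 491 (288 higher, 203 lower), was 800 (433 and 367) with median centring, 303 with normexp (90 lower), 782 with array weights (354 lower) and 16 when dim probes were not filtered out (15 and 1), a fit that tests 20284 genes. With median centring limma also gave its shared variance more weight (32.8 prior degrees of freedom against 3.78). The 6 other Cyp2 genes became 0 with no filter. The 4 genes of the pathway lists became 7 with median centring (2 lower) and 1 with no filter (1 higher), and 1 was lower with the filter on all 6 arrays, with the trended robust variance, with array weights and with the replicate block. With the replicate number as a block, 266 genes passed (164 higher, 102 lower), 3 other Cyp2 genes among them, all higher. Same-numbered samples deviated together with r of 0.062, -0.091 and 0.102 over 14508 genes, so the numbers were not taken as pairs. Leaving out 1 array gave 141 to 922 genes (105 to 344 higher, 36 to 578 lower), 1 to 8 other Cyp2 genes (1 to 7 higher, 0 to 1 lower) and 2 to 5 list genes (2 to 4 higher, 0 to 1 lower). The lowest total came without aged replicate 2 and the highest without aged replicate 1. The cause of these shifts was not tested. Precision is limited by having 3 arrays an age, and the young Cyp2b10 signal is also near background.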
